A study of Arabidopsis thaliana with 12 samples.

Results

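The 10 genes described here encode regulators and enzymes of aliphatic glucosinolate synthesis in Arabidopsis thaliana. They were taken by locus from the 32833 genes of the deposited count table: the regulators MYB28 and MYB29, the chain elongation genes MAM1, MAM3 and BCAT4, the core structure genes CYP79F1, CYP79F2, CYP83A1 and SUR1, and the side chain gene FMOGS-OX1. The rule names loci and uses no measured value, but the genes were chosen with earlier results of these data known. Shares of the 10 genes set beside those of all tested genes are therefore a description. All 10 passed the filter on low counts, and 20471 genes were tested in all. RNA was sequenced from whole seedlings harvested 12 days after germination, after 4 days of cold treatment of the seed at 4 °C and growth on soil in long days at 21 °C. There were 4 genotypes with 3 libraries each: the wild type Columbia-0 and the mutants nrpb2-3, ssrp1-2 and spt16-2. The allele nrpb2-3 lies in NRPB2, which encodes a core subunit of RNA polymerase II (Pol II). The alleles ssrp1-2 and spt16-2 lie in SSRP1 and SPT16, whose products together form FACT, a chaperone that opens and rebuilds nucleosomes during transcription. The labels give each mutant as a single allele, with no transgene, no lesion and no second allele, and they do not say whether the replicates were separate sowings, so the p-values cover only variation among these libraries, part of which can be technical.

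Aliphatic glucosinolates are sulfur-rich defence compounds of Arabidopsis and its relatives that are made from methionine and stored intact until tissue is damaged. Methionine is first converted to a keto acid and lengthened by repeated additions of carbon, the lengthened amino acid is then turned into the glucosinolate core, and the side chain is finally modified. MYB28 and MYB29 are related MYB transcription factors that turn on these steps, and they act with the MYC2, MYC3 and MYC4 factors of the jasmonate pathway.

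Of all counts in a library, 39483328 to 43434901 in number, the 10 genes took 0.115% to 0.130% in Columbia-0 and 0.242% to 0.286% in nrpb2-3. These shares are before scaling between libraries. Levels below are CPM (a gene's counts relative to the scaled library total) after TMM scaling, which adjusts for differences in overall composition between libraries. Fold changes are log2 with the standard error (SE) of edgeR's quasi-likelihood fit, and a call means an adjusted p under 0.05 after Benjamini-Hochberg correction across the 20471 genes.

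Facts of the whole series that touch these results are few. SSRP1 transcripts fell in ssrp1-2 (−1.17 ± 0.11, adjusted p = 0.000462), whereas SPT16 was not called in spt16-2 and the library labelled spt16-2 replicate 2 held it at 55.4 CPM, inside the wild-type range of 44.9 to 62.0 CPM, against 27.8 and 30.0 CPM in the other libraries of that mutant. Columbia-0 replicate 1 was the wild-type library whose deviations from the group mean followed those of the same-numbered mutant libraries least (r of −0.05 to 0.12 across genes, against 0.17 to 0.37 for the other two). The labels give no meaning to the replicate numbers, so a low r does not by itself mark a faulty library. Results were also computed without these doubted libraries, spt16-2 replicate 2 and Columbia-0 replicate 1. The 5 flower markers summed to 22.2 to 26.1 CPM in the spt16-2 libraries, replicate 2 included. They summed to 17.5 to 22.9 CPM in ssrp1-2 and 2.51 to 5.38 CPM in Columbia-0. NRPB2 transcripts rose in nrpb2-3 (0.67 ± 0.12, adjusted p = 0.00135) and do not check that label. The samples are labelled as whole seedlings, but the summed level of 6 root markers was 3.75 to 15.5 CPM in every library, and COBL9, a root hair gene, held 0 to 21 counts. Seed storage genes held at most 12 counts per gene in any library.

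In nrpb2-3, 6 of the 10 genes rose against Columbia-0 and none fell. Among all tested genes 15.8% were called higher in this comparison, and 15.1% lower. MYB29 and MYB28, the regulators, rose 4.48-fold and 2.33-fold, CYP79F2 rose 2.31-fold, and FMOGS-OX1, CYP79F1 and MAM1 rose 1.77-fold, 1.72-fold and 1.63-fold. MAM3 and BCAT4 did not pass the test, and CYP83A1 and SUR1 had log2 fold changes close to 0. The median log2 fold change was 0.74 over the 10 genes and 0.05 over all tested genes. The 3 nrpb2-3 libraries lay above the 3 Columbia-0 libraries for 7 of the 10 genes, against 24.3% of all tested genes, and all below for none, against 19.9%.

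**Figure D1:**
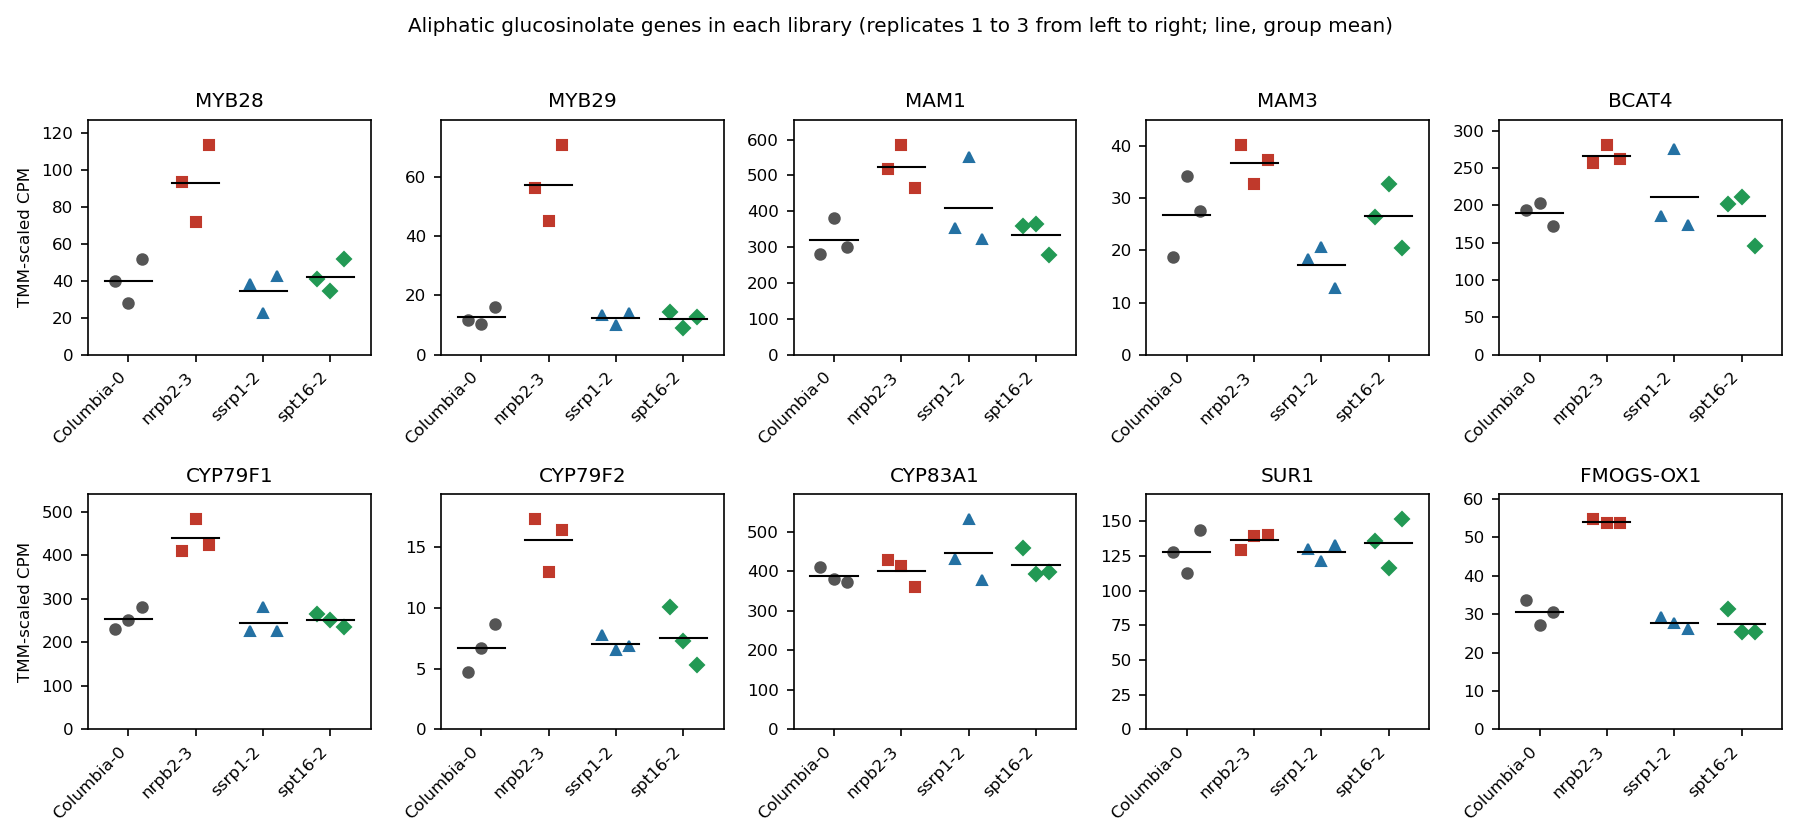
TMM-scaled CPM (y axis, from 0, scale differs by panel) of the 10 genes in the 3 libraries of each genotype (x axis), replicates 1 to 3 from left to right, with a line at the group mean. The nrpb2-3 points of MYB29 lie at 45.1 to 70.8 CPM and those of the other genotypes at 8.93 to 16.2 CPM, while CYP83A1 and SUR1 show no such gap.

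MYB28 (AT5G61420, chromosome 5, 24689069 to 24691187, minus strand, TAIR10.1) encodes the regulator with the larger wild-type level of the pair. Its level was 39.8, 27.9 and 52.1 CPM in Columbia-0 and 93.6, 72.1 and 114 CPM in nrpb2-3, replicates 1 to 3. The lowest nrpb2-3 library was above the highest wild-type library, and the log2 fold change was 1.22 ± 0.28 (adjusted p = 0.00719). MYB29 (AT5G07690, chromosome 5, 2446669 to 2448584, plus strand) was at 11.8, 10.4 and 16.2 CPM in Columbia-0 and at 56.1, 45.1 and 70.8 CPM in nrpb2-3. It had the largest fold change of the 10 genes in this comparison (2.16 ± 0.23, adjusted p = 6.61e-05), and the groups did not overlap. The coding sequences of both genes were 78.2% identical over 984 aligned bases, with no identical run longer than 29 bases. Both calls held under all 20 alternatives tried, with log2 fold changes of 1.02 to 1.78 for MYB28 and 1.97 to 2.72 for MYB29.

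Chain elongation begins with BCAT4 (AT3G19710, chromosome 3, 6846969 to 6849582, minus strand), the aminotransferase that removes the amino group of methionine. BCAT4 stood at 193, 204 and 173 CPM in Columbia-0 and 256, 281 and 262 CPM in nrpb2-3. All nrpb2-3 libraries were higher, but the difference missed the threshold (0.49 ± 0.18, 95% interval 0.10 to 0.87, adjusted p = 0.0530). It was called under 8 of the 20 alternatives, among them DESeq2 (adjusted p = 0.0491), limma on the length-scaled table (0.0338), the replicate block (0.0112) and the fits without ssrp1-2 replicate 2 (0.0227), ssrp1-2 replicate 3 (0.0481) or spt16-2 replicate 3 (0.0397), and its adjusted p ran from 0.000422 to 0.140. The gene overlaps AT3G19700 on the opposite strand over 307 of its 1451 exon bases, and that partner had 0 counts in all libraries.

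MAM1 and MAM3 encode the methylthioalkylmalate synthases, which condense the keto acid with acetyl-CoA in each elongation round. MAM1 (AT5G23010, chromosome 5, 7703041 to 7706973, plus strand) was at 282, 381 and 299 CPM in Columbia-0 and 517, 585 and 464 CPM in nrpb2-3. The groups did not overlap and the gene was called (0.70 ± 0.20, adjusted p = 0.0171). This call was lost without Columbia-0 replicate 1 (0.62, adjusted p = 0.0638), Columbia-0 replicate 3 (0.65, 0.0541) or nrpb2-3 replicate 2 (0.60, 0.0613), and without both doubted libraries (0.60, 0.0769). MAM3 (AT5G23020, chromosome 5, 7718118 to 7721866, plus strand) lies 11144 bases after MAM1 with no protein-coding gene between them. MAM3 held 18.8, 34.2 and 27.5 CPM in Columbia-0 and 40.2, 32.7 and 37.4 CPM in nrpb2-3. The groups overlapped at nrpb2-3 replicate 2 and Columbia-0 replicate 2, and the difference did not pass the test (0.45 ± 0.23, 95% interval −0.04 to 0.95, adjusted p = 0.152).

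CYP79F1 and CYP79F2 are neighbouring cytochrome P450 genes whose products turn the elongated amino acids into aldoximes, the entry to the core structure. CYP79F1 (AT1G16410, chromosome 1, 5608682 to 5612064, plus strand) was at 232, 250 and 282 CPM in Columbia-0 and 410, 482 and 424 CPM in nrpb2-3. Every nrpb2-3 library exceeded every wild-type library (0.79 ± 0.13, adjusted p = 0.000786). CYP79F2 (AT1G16400, chromosome 1, 5605044 to 5607498, plus strand) was at 4.77, 6.73 and 8.70 CPM in Columbia-0 and 17.3, 13.0 and 16.4 CPM in nrpb2-3. It was the least expressed of the 10 genes per length in both genotypes, and its groups did not overlap either (1.21 ± 0.24, adjusted p = 0.00241). The coding sequences of the pair were 91.9% identical over 1605 aligned bases, with an identical run of 100 bases. How reads that match both genes were counted is not given in the sources used here, so their levels are uncertain to that extent, above all that of CYP79F2.

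CYP83A1 (AT4G13770, chromosome 4, 7990429 to 7992429, minus strand) encodes the P450 that oxidises the aldoximes, and SUR1 (AT2G20610, chromosome 2, 8877887 to 8880440, minus strand) encodes the C-S lyase that acts in the following steps of both aliphatic and indolic glucosinolate synthesis. CYP83A1 stood at 412, 381 and 372 CPM in Columbia-0 and 429, 413 and 359 CPM in nrpb2-3. The groups overlapped, and the log2 fold change was 0.05 ± 0.14 (95% interval −0.26 to 0.35, adjusted p = 0.834). SUR1 stood at 128, 113 and 144 CPM in Columbia-0 and 130, 139 and 140 CPM in nrpb2-3. Its interval was −0.18 to 0.36 around 0.09 ± 0.13 (adjusted p = 0.615), so these libraries leave room for a small change in either direction.

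FMOGS-OX1 (AT1G65860, chromosome 1, 24498954 to 24502776, minus strand) encodes a flavin monooxygenase that oxidises the sulfur of the side chain. It held 33.7, 27.2 and 30.5 CPM in Columbia-0 and 54.6, 53.8 and 53.6 CPM in nrpb2-3. The nrpb2-3 libraries lay close together and all above the wild type (0.83 ± 0.12, adjusted p = 0.000299). The calls of CYP79F1, CYP79F2 and FMOGS-OX1 held under all 20 alternatives.

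The promoters of the 10 genes were searched for letters bound by the regulators' families, on both strands of the 250 bases before each annotated start. The motifs were the G-box CACGTG, bound by MYC factors, and the AC elements bound by MYB factors, AC-I with the letters ACCTACC, AC-II with ACCAACC and AC-III with ACCTAAC. On the opposite strand AC-I reads GGTAGGT and AC-III reads GTTAGGT. In these 10 windows no match overlapped another. An AC element was found before 4 of the 10 genes and in 6.12% of 27443 promoters of the same length. The G-box was found before 2 of the 10 genes and in 6.49% of those promoters. The 4 promoters with a match are shown 5′ to 3′ on the gene's strand, with the matched letters in capitals, because 2 of them belong to genes that rose in nrpb2-3 and 2 to the core genes that were not called. They are from the TAIR10.1 sequence and RefSeq annotation: chr1:5604794-5605043 (plus) for CYP79F2, chr1:24502777-24503026 (minus) for FMOGS-OX1, chr4:7992430-7992679 (minus) for CYP83A1 and chr2:8880441-8880690 (minus) for SUR1.
CYP79F2: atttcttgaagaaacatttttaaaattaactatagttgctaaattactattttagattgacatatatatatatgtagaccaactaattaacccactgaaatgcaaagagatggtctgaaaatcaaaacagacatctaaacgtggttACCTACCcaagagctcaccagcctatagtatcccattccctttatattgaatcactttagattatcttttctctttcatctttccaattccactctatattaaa
FMOGS-OX1: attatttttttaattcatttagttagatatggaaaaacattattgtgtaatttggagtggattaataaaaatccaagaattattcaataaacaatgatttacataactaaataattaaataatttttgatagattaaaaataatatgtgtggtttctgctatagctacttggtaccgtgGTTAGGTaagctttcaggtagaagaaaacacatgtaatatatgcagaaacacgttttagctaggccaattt
CYP83A1: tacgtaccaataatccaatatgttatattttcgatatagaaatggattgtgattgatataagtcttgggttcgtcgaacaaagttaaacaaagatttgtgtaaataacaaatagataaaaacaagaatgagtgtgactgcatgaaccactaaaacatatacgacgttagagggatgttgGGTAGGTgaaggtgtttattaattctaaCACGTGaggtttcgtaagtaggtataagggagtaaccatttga
SUR1: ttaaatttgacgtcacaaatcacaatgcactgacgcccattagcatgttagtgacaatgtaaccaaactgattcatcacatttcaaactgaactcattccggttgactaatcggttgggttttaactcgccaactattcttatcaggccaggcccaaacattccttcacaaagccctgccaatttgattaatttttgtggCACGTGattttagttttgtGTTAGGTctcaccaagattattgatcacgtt
The AC element started 104 bases before the start of CYP79F2, 71 before FMOGS-OX1, 71 before CYP83A1 and 31 before SUR1. The G-box lay before CYP83A1 and SUR1, at 43 and 50 bases. Among the other listed synthesis genes described below, an AC element lay before BAT5 and IPMI-SSU3, which rose in nrpb2-3. It also lay before IPMI-LSU1, IPMI-SSU2, UGT74B1 and SOT17, which were not called, and IPMI-LSU1 held a G-box too. The part of these letters in the genes' values was not tested. The windows of the other 6 genes, MYB28, MYB29, MAM1, MAM3, BCAT4 and CYP79F1, held none of these letters. A match is a description of letters and shows no binding.

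Scaling bears on these values because overall composition differed in nrpb2-3. With library totals in place of TMM factors the median of all tested genes moved from 0.05 to 0.59 on the log2 scale, and all 10 genes were called higher. Of all tested genes, 10688 were then called higher and 758 lower, against 3238 and 3097 with TMM factors, so that count says little about the 10 genes. Relative to that median, CYP83A1 was at −0.01 and SUR1 at 0.04, while MYB29 was at 2.13 and MYB28 at 1.19. All 7 leaf photosynthesis markers fell in nrpb2-3, from a summed 94491 to 112667 CPM in Columbia-0 to 25667 to 50939 CPM. The median nrpb2-3 library was at 48305 CPM, so 1 library lay well below the others. SUC2, a phloem companion cell gene, fell as well (−1.10 ± 0.26, adjusted p = 0.00772), while the other 3 vascular markers were not called. Of 5 flower markers AP1 and AG fell, and the 5 summed to 1.25 to 2.06 CPM in nrpb2-3. In whole seedlings fewer cells of a type and less RNA per cell cannot be told apart, and the part of these shifts in the 10 genes' values was not tested.

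**Figure D2:**
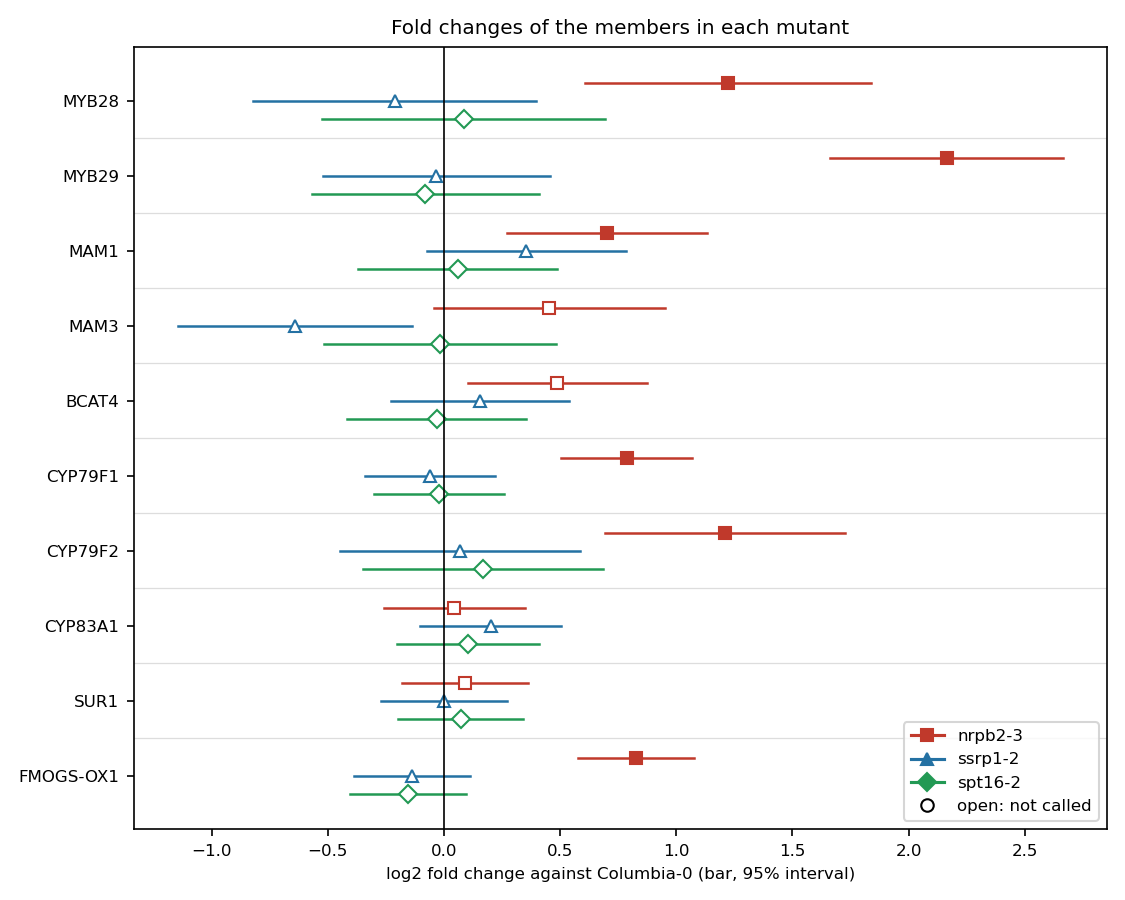
Log2 fold changes against Columbia-0 (x axis) of the 10 genes (y axis) in nrpb2-3 (squares), ssrp1-2 (triangles) and spt16-2 (diamonds), with 95% intervals as bars and open symbols for genes not called. The filled squares of nrpb2-3 run from 0.70 for MAM1 to 2.16 for MYB29, and no symbol of either FACT mutant is filled.

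In ssrp1-2 none of the 10 genes was called against Columbia-0, where 0.557% of all tested genes were called in either direction. At an unadjusted p under 0.05 there was 1, MAM3, against 1919 of all 20471 tested genes. DESeq2 and limma on the length-scaled table called 0 as well. No member's libraries were all above those of the wild type (8.09% of all tested genes) or all below (5.73%). MYB28 was at 38.5, 22.4 and 42.4 CPM and MYB29 at 13.4, 9.96 and 14.2 CPM, levels that overlapped those of the wild type. MAM3 was at 18.3, 20.6 and 12.8 CPM, with the Columbia-0 replicate 1 value inside that range and the other wild-type values above it. Its log2 difference of −0.64 ± 0.23 (95% interval −1.14 to −0.14) had an adjusted p of 0.373, and the smallest over its alternatives was 0.177, without both doubted libraries. MAM1 was at 354, 552 and 323 CPM, BCAT4 at 185, 275 and 173 CPM and CYP83A1 at 430, 531 and 378 CPM. In each of these the library of ssrp1-2 replicate 2 was the highest, and without it the log2 fold change of MAM1 went from 0.35 to 0.08, that of BCAT4 from 0.15 to −0.08 and that of CYP83A1 from 0.20 to 0.06.

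The remaining members in ssrp1-2 stayed near the wild type. CYP79F1 was at 225, 281 and 227 CPM, CYP79F2 at 7.78, 6.54 and 6.88 CPM, SUR1 at 130, 121 and 133 CPM and FMOGS-OX1 at 29.3, 27.6 and 26.2 CPM. Each of these overlapped Columbia-0, and their log2 fold changes were between −0.14 and 0.07. Over all 10 genes the 95% intervals reached from −1.14 (MAM3) to 0.78 (MAM1), which bounds what these libraries allow.

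In spt16-2 none of the 10 genes was called either, against 0.42% of all tested genes in either direction. No member had an unadjusted p under 0.05, against 1679 of all 20471 tested genes. DESeq2 and limma on the length-scaled table called 0. The libraries overlapped for every member, where 7.38% of all tested genes were all above and 5.77% all below. MYB28 held 40.9, 34.3 and 51.8 CPM, MYB29 held 14.6, 8.93 and 12.8 CPM and FMOGS-OX1 held 31.4, 25.4 and 25.3 CPM. All 3 overlapped the wild type. MAM1 was at 359, 365 and 279 CPM, MAM3 at 26.4, 32.8 and 20.4 CPM and BCAT4 at 201, 211 and 145 CPM. The replicate 3 library was the lowest for each of the 3 chain elongation genes. CYP79F1 was at 265, 252 and 235 CPM, CYP79F2 at 10.1, 7.28 and 5.33 CPM, CYP83A1 at 459, 394 and 399 CPM and SUR1 at 136, 117 and 151 CPM. The log2 fold changes lay between −0.16 (FMOGS-OX1) and 0.17 (CYP79F2), and the 95% intervals reached from −0.57 (MYB29) to 0.69 (MYB28). Of the 5 flower markers, 4 rose in ssrp1-2 and 3 in spt16-2. PI, among the 4, was not called without Columbia-0 replicates 2 or 3 or ssrp1-2 replicate 3 (adjusted p up to 0.0659 over these). The 5 summed to 2.51 to 5.38 CPM in Columbia-0, 17.5 to 22.9 CPM in ssrp1-2 and 22.2 to 26.1 CPM in spt16-2, and their part in the members' values was not tested. The comparisons of the 3 mutants with Columbia-0 share its libraries, so their values are set side by side and not correlated.

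The FACT mutants were also compared with each other, where 0.0684% of all tested genes were called in either direction and none of the 10 was, by edgeR, DESeq2 or limma. The libraries of both mutants overlapped for all 10 genes, whereas 4.52% of all tested genes were all above and 3.98% all below in spt16-2. MAM3 was the single one of the 10 with an unadjusted p under 0.05, against 619 of all 20471 tested genes. It was at 26.5 ± 6.19 CPM in spt16-2 and 17.2 ± 4.00 CPM in ssrp1-2 (SD, n = 3). Its libraries overlapped and its log2 difference of 0.63 ± 0.23 had an adjusted p of 1. For MYB28 the difference was 0.30 ± 0.28 and for MAM1 it was −0.29 ± 0.20.

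Whether the Pol II mutant differed from the FACT mutants was tested directly against the mean of ssrp1-2 and spt16-2, a contrast with no wild-type library. Here 8 of the 10 genes were higher in nrpb2-3 and none lower, against 15.6% of all tested genes called higher and 15% called lower. MYB29 differed by 2.22 ± 0.18 (adjusted p = 7.52e-06), MYB28 by 1.29 ± 0.23 (0.00185), CYP79F2 by 1.09 ± 0.20 (0.00130), FMOGS-OX1 by 0.97 ± 0.10 (2.27e-05) and CYP79F1 by 0.83 ± 0.11 (0.000165). For these 5 genes the nrpb2-3 libraries were all above the 6 FACT mutant libraries, against 16.2% of all tested genes, and no member's were all below, against 15.9%. MAM3 was called in this contrast (0.78 ± 0.19, adjusted p = 0.00921), although the nrpb2-3 replicate 2 library, at 32.7 CPM, lay just under the spt16-2 replicate 2 library, at 32.8 CPM. MAM1 (0.50 ± 0.17, adjusted p = 0.0398) and BCAT4 (0.43 ± 0.15, 0.0479) passed narrowly. MAM1 was no longer called under 7 of the 20 alternatives, each of which left out 1 library, with adjusted p up to 0.156 without nrpb2-3 replicate 2. Those libraries were the 3 of nrpb2-3 and replicates 1 and 3 of each FACT mutant, and BCAT4 lost its call without each of them, without each Columbia-0 library, with median-of-ratios factors and in the fit on the compared groups alone (adjusted p 0.0523 to 0.144). CYP83A1 (−0.11 ± 0.12, adjusted p = 0.538) and SUR1 (0.06 ± 0.11, 0.733) were not called, but with library totals, where the median of all genes was 0.49, both were called higher (CYP83A1 0.34, adjusted p = 0.00747, and SUR1 0.51, adjusted p = 0.00369). In the same contrast all 7 leaf photosynthesis markers and all 5 flower markers were lower. The leaf marker LHCB1.3 was not called without nrpb2-3 replicate 3 (adjusted p = 0.0538). Of 4 tested root markers 2 were higher, but neither was called without that library (0.475 for NRT2.1 and 0.215 for the other). NRT2.1 also lost its call in other alternatives, such as the compared groups alone (0.0652). Of 4 vascular markers 1 was lower and 1, PP2-A1, higher. The PP2-A1 call was lost in several alternatives, such as without nrpb2-3 replicate 1 (0.123). The part of these markers in the members' values was not tested.

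Levels of different genes were compared on the authors' length-scaled signal, which divides each count by a gene length. That length is 3272 bases for CYP79F1, whose coding sequence has 1617, and 1451 to 2051 bases for the other members. The place of CYP79F1 in the order therefore depends on its annotated length. In Columbia-0 the order of mean signal was CYP83A1 at 304 ± 11.8 (SD, n = 3), MAM1 at 234 ± 41.5, BCAT4 at 196 ± 16.5, CYP79F1 at 116 ± 12.8 and SUR1 at 102 ± 12.2. Then came MYB28 at 30.1 ± 9.14, FMOGS-OX1 at 26.2 ± 2.39, MAM3 at 22.0 ± 6.65, MYB29 at 11.05 ± 2.66 and CYP79F2 at 4.998 ± 1.51. Neighbours in that order whose libraries overlapped were MAM1 and BCAT4, CYP79F1 and SUR1, MYB28 and FMOGS-OX1, and FMOGS-OX1 and MAM3. In nrpb2-3 MAM1 was first by mean signal, at 398 ± 47.9 against 329 ± 31.9 for CYP83A1, with overlapping libraries, and MYB29 at 51.8 ± 11.4 stood beside FMOGS-OX1 at 48.8 ± 0.740. Summed over the 10 genes, levels were 1398 ± 40.2 CPM in Columbia-0, 2021 ± 89.1 CPM in nrpb2-3, 1539 ± 271 CPM in ssrp1-2 and 1438 ± 110 CPM in spt16-2.

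Of the other genes of aliphatic glucosinolate synthesis, 25 were listed and 21 tested, with 8 called higher and 1 lower in nrpb2-3 against Columbia-0 (median 0.38). Of all tested genes 15.8% were higher and 15.1% lower (median 0.05). Against the mean of the FACT mutants, 8 of the 21 were higher and 3 lower. Of the regulators, MYB76, a close relative that lies 1442 bases from MYB29, rose from 1.25 to 5.54 CPM (2.14 ± 0.34, adjusted p = 0.000551). MYC3 rose by a smaller amount (0.37 ± 0.11, adjusted p = 0.0183), a call lost without Columbia-0 replicate 3 (0.0557), without nrpb2-3 replicate 1 (0.0627) and in the fit on the compared groups alone (0.0525). MYC4 was not called (0.54 ± 0.24, adjusted p = 0.105). MYC2 was listed at 0 in all 12 libraries, and 98.5% of its exon bases are overlapped by AT1G32630 on the opposite strand in the annotation, so no level is given.

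Among other chain elongation genes, 2 of 6 rose in nrpb2-3 and none fell. BAT5, a plastid transporter of the keto acids, rose from 33.9 to 71.5 CPM (1.08 ± 0.15, adjusted p = 0.000272), and IPMI-SSU3, an isomerase subunit, rose from 78.0 to 157 CPM (1.01 ± 0.13, 0.000187). BCAT3, IPMI-LSU1, IPMI-SSU2 and IPMDH1 were not called, with log2 fold changes of −0.34 to 0.39. Among other core structure genes, 2 of 6 tested rose, GGP1 (0.45 ± 0.16, adjusted p = 0.0431) and SOT18 (0.42 ± 0.15, 0.0412). Both calls were close to the threshold, and they were lost in 9 and 10 of the 20 alternatives. GGP1 was not called without Columbia-0 replicates 2 or 3, nrpb2-3 replicates 2 or 3, ssrp1-2 replicate 3 or spt16-2 replicates 1 or 3 (adjusted p up to 0.202). SOT18 was not called without any 1 Columbia-0 or nrpb2-3 library, ssrp1-2 replicates 1 or 3 or spt16-2 replicate 3 (up to 0.125). SOT17, the other sulfotransferase of the aliphatic branch, was not called (0.75 ± 0.28, adjusted p = 0.0606), and neither were GSTU20, UGT74B1 and UGT74C1.

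The side chain genes moved in both directions. FMOGS-OX2 rose from 4.13 to 16.6 CPM in nrpb2-3 (2.00 ± 0.18, adjusted p = 1.55e-05) and FMOGS-OX3 from 44.3 to 82.1 CPM (0.89 ± 0.13, 0.000348). FMOGS-OX5 fell from 37.9 to 20.4 CPM (−0.89 ± 0.16, adjusted p = 0.00118). FMOGS-OX4, AOP1 and GSL-OH were not called. FMOGS-OX2 was also the single pathway gene called in a FACT mutant: in ssrp1-2 it was at 7.57, 11.6 and 7.66 CPM against 4.18, 4.36 and 3.84 CPM in Columbia-0 (1.11 ± 0.18, adjusted p = 0.0138). That call was lost without Columbia-0 replicate 1 (0.0616), Columbia-0 replicate 3 (0.0597), both doubted libraries (0.0836) and in the fit on the compared groups alone (0.124). The coding sequence of FMOGS-OX2 was 85.4% identical to that of FMOGS-OX1 over 1374 aligned bases, with an identical run of 53 bases.

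**Figure D3:**
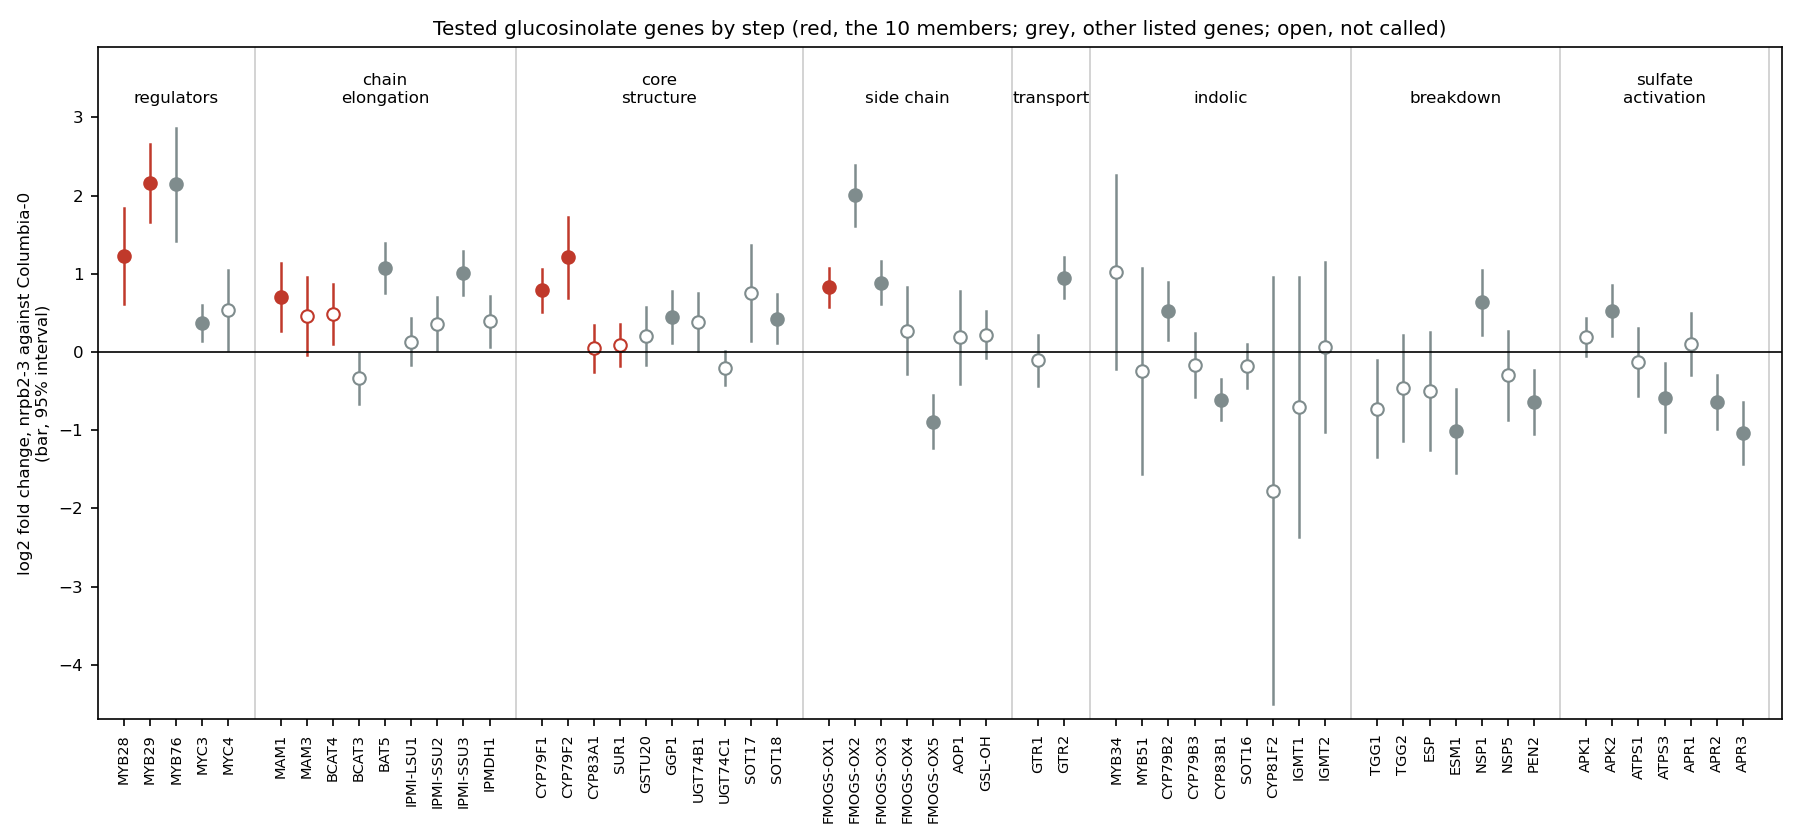
Log2 fold change in nrpb2-3 against Columbia-0 (y axis, bars are 95% intervals) of the tested glucosinolate genes grouped by step, with the 10 members in red, other listed genes in grey and open circles for genes not called. All 5 tested regulators lie above 0, from 0.37 for MYC3 to 2.16 for MYB29. Indolic genes, breakdown genes and those of sulfate activation or reduction (marked sulfate activation) lie on both sides.

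Genes around the pathway were called in both directions in nrpb2-3, in numbers to be read against the 15.8% of all tested genes called higher and 15.1% lower. GTR2, a glucosinolate transporter, rose (0.95 ± 0.12, adjusted p = 0.000155) and GTR1 was not called (−0.10 ± 0.15). Of 9 tested indolic genes, CYP79B2 was higher (0.52 ± 0.17, adjusted p = 0.0335) and CYP83B1, the indolic counterpart of CYP83A1, was lower (−0.61 ± 0.12, 0.00231). Of 7 breakdown genes, ESM1 (−1.02 ± 0.25, adjusted p = 0.00818) and PEN2 (−0.64 ± 0.19, 0.0228) were lower and NSP1 was higher (0.64 ± 0.19, 0.0230). Of 7 genes of sulfate activation or reduction, the reduction genes APR3 (−1.03 ± 0.19, adjusted p = 0.00129) and APR2 (−0.64 ± 0.16, 0.00899) were lower. ATPS3, an activation gene, was lower as well (−0.59 ± 0.21, 0.0452). APK2, which makes the sulfate donor of the sulfotransferases, was higher (0.53 ± 0.15, 0.0192). Of 6 tested sulfur starvation genes none was called, by edgeR, with 2 at an unadjusted p under 0.05, against 8676 of all 20471 tested genes.

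Some of these calls were lost when any 1 of several libraries was left out. CYP79B2 was not called without Columbia-0 replicates 1 or 2 or any nrpb2-3 library (adjusted p up to 0.131 over its alternatives), and NSP1 without Columbia-0 replicates 1 or 3 or any nrpb2-3 library (up to 0.108). PEN2 was not called without Columbia-0 replicates 1 or 2 or nrpb2-3 replicates 1 or 3 (up to 0.112 over these), APK2 without Columbia-0 replicate 3 or nrpb2-3 replicates 1 or 2 (up to 0.0777), and ATPS3 without Columbia-0 replicates 1 or 2, any nrpb2-3 library, ssrp1-2 replicate 1 or spt16-2 replicate 1 (up to 0.183 over these). With library totals CYP83B1, PEN2, ATPS3 and APR2 were at −0.07, −0.09, −0.05 and −0.08 and were not called.

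The tested genes outside the 10 whose log2 CPM was most like the members' mean z-score over the 12 libraries were ranked by Pearson's r, as a description. FMOGS-OX3 ranked first of 20461 genes (r = 0.97), followed by FBH3, AT2G36325, AK3, AT5G49700, AT2G04735, AT4G38780, AT5G49525, YSL2 and AT4G02655 (r = 0.97 to 0.96). The mean z-score was 1.08 to 1.14 in the nrpb2-3 libraries and −0.69 to 0.04 in the other 9, so this likeness is mostly likeness in the step between nrpb2-3 and the rest.

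Within genotypes the 10 genes did not vary together. In all 4 genotypes MYB28 and MYB29 were lowest in replicate 2, and MAM1 and BCAT4 were highest in replicate 2. After the genotype means were removed, r across the 12 libraries was 0.87 between MYB28 and MYB29 and 0.90 between MAM1 and BCAT4, but −0.92 between MYB28 and MAM1 and −0.85 between MYB28 and BCAT4. When replicate number was added to the fit as a block, its own term was called for MYB28 (adjusted p = 0.00110) and MYB29 (0.0113). It was not called for MAM1 (0.0608) or BCAT4 (0.125). Nor was it for MAM3, CYP79F1, CYP79F2, CYP83A1, SUR1 and FMOGS-OX1 (0.319 to 0.787). Of all tested genes 6.63% were called for it. This look at replicate numbers was chosen after the values were seen. The labels give no meaning to the replicate numbers.

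Of 6 listed clock genes, 3 were called for the replicate number (CCA1, TOC1 and PRR9), and LHY, PRR7 and GI were not. PRR9, a morning gene of the circadian clock, was at 4.59 CPM in replicate 2 of Columbia-0 and at 13.5 and 11.3 CPM in replicates 1 and 3, and it was lowest in replicate 2 in all 4 genotypes (adjusted p = 0.000314). TOC1, an evening gene, was highest in replicate 2 in all 4 (adjusted p = 0.00794), at 42.3 CPM in Columbia-0 against 27.7 and 30.5 CPM. TOC1 also differed by genotype, at 50.5 CPM in nrpb2-3 and 33.5 CPM in Columbia-0 (0.59 ± 0.20, adjusted p = 0.0373). That call was lost without Columbia-0 replicates 1 or 3, any nrpb2-3 library or both doubted libraries (up to 0.134). Against the FACT mutants TOC1 differed by 0.74 ± 0.17 (adjusted p = 0.00508), a call held under all 20 alternatives, and no other clock gene was called in either comparison. The part of time of day in the members' values was not tested. By number, MYB29 was at 56.1 CPM in nrpb2-3 and 11.8 CPM in Columbia-0 in replicate 1. It was at 45.1 against 10.4 CPM in replicate 2 and at 70.8 against 16.2 CPM in replicate 3. For MYB28 and MYB29 these groups did not overlap, so any matching of libraries gives a rise. The match by number therefore tests nothing.

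**Figure D4:**
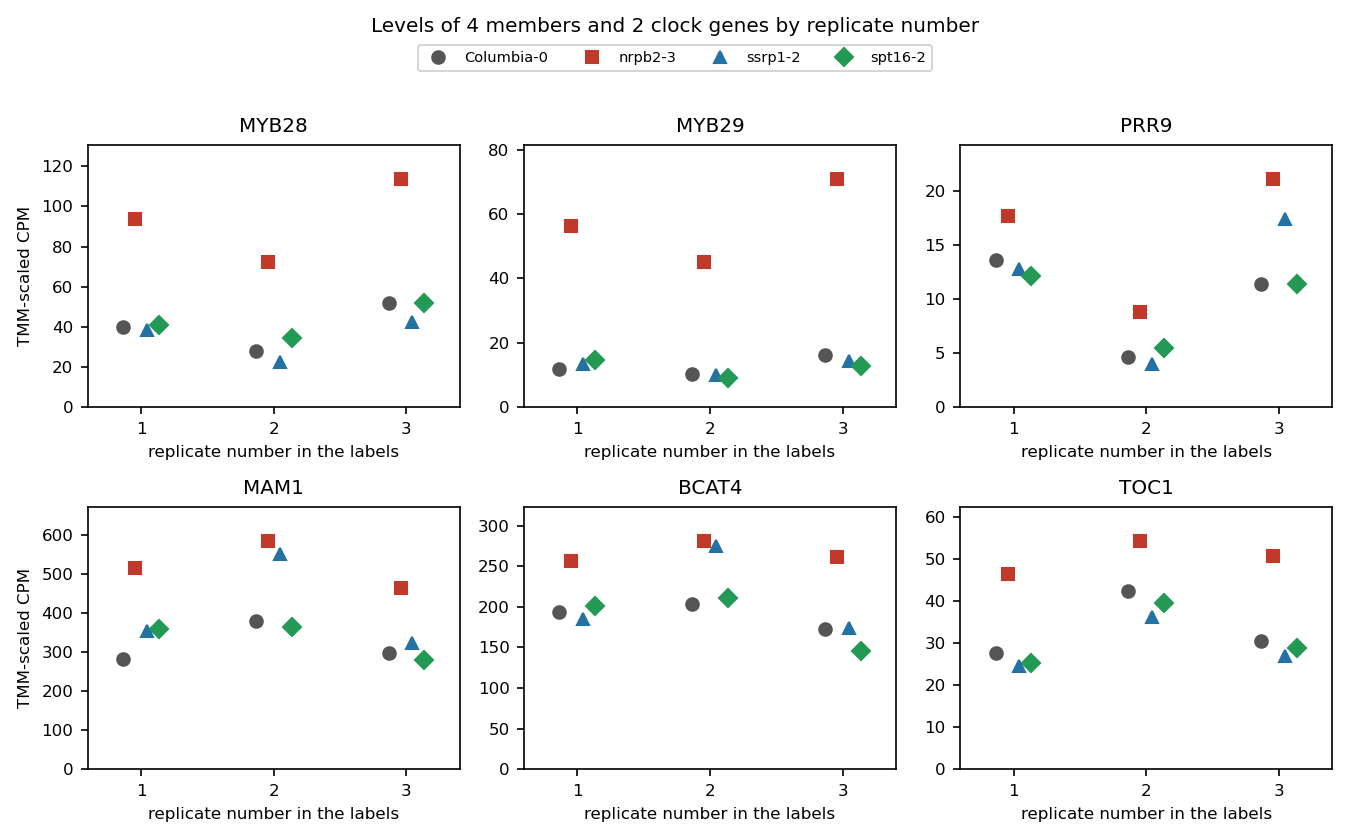
TMM-scaled CPM (y axis, from 0) of MYB28, MYB29, MAM1, BCAT4 and the clock genes PRR9 and TOC1 by the replicate number in the labels (x axis), with 1 point per library and a symbol for each genotype. MYB28, MYB29 and PRR9 are lowest and MAM1, BCAT4 and TOC1 highest in replicate 2 of each genotype.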

How the data were processed

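The authors deposited a table of counts per gene for 12 libraries and a table of length-scaled signal. Per the submitters' processing notes they used fastp 0.23.4, HISAT2 2.2.1 and the build TAIR10; how reads were assigned to genes, by strand or when mapped more than once, is not given in the sources used here. Dividing the counts by gene length and by a factor per library gives the authors' signal (length within 5% of the annotated exon length for 99.6% of 11283 genes checked). Its sums differ between libraries, from 652496 to 1181546, so it is not TPM. The lowest sum was in the library with the largest TMM factor here (nrpb2-3 replicate 3, 1.47). The highest was in that with the smallest (Columbia-0 replicate 1, 0.849). A fit on this signal is therefore not free of scaling between libraries.

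The test was the quasi-likelihood F test of edgeR 4.0.16 (R 4.3.3), two-sided and robust, after TMM scaling and filterByExpr (minimum count 10). One fit of all 12 libraries, by genotype, gave 5 comparisons, each adjusted over 20471 genes. The code was tested on simulated data. Alternatives were other scalings, DESeq2 1.42.0, limma 3.58.1 on log2(signal + 1), no filter, compared groups alone, a replicate block, each library left out, and, chosen after seeing the data, both doubted libraries (Columbia-0 replicate 1 and spt16-2 replicate 2) left out. Coordinates and promoters come from TAIR10.1, whose nuclear sequence was used with its own annotation (Biopython 1.88 for alignments).

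The members and gene lists were chosen with earlier results of these data known. All 10 members are named in every comparison; other lists are given by counts, with up to 4 called genes each by smallest adjusted p. Replicate numbers were checked as pairs by the correlation of deviations from group means: it was 0.12 to 0.35 for spt16-2 with Columbia-0, 0.20 to 0.34 for spt16-2 with ssrp1-2 and 0.14 to 0.26 for nrpb2-3 with the FACT mutants, all over 0.1. AOP2 is not analysed here.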

Additional observations from a re-analysis of the deposited data

How the results depend on the processing

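Of the 10 genes' values in nrpb2-3 against Columbia-0, 185 of 200 over the 20 alternatives kept their side of the threshold, 1 of them, of CYP83A1, with a change of sign near 0. MAM1 lost its call in 4 and genes not called gained one in 11, 8 of these for BCAT4. In each FACT mutant against Columbia-0, and between the FACT mutants, 200 of 200 kept their side of the threshold, but 22, 26 and 16 uncalled values changed sign. Against the mean of the FACT mutants 179 of 200 kept it, with calls lost by MAM1 in 7 alternatives and BCAT4 in 12 and calls gained by CYP83A1 and SUR1 with library totals. With library totals the number of members called in nrpb2-3 against Columbia-0 rose from 6 to 10, and against the FACT mutants from 8 to 10. There CYP83A1 turned to 0.34, BCAT3 to 0.065 and UGT74C1 to 0.10, where the scaling moved the median of all genes from 0.04 to 0.49. With 1 library left out at a time, 5 to 7 members were called in nrpb2-3 against Columbia-0, 6 to 8 against the FACT mutants and 0 in the other comparisons.

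The replicate numbers did not pair the libraries of nrpb2-3 or ssrp1-2 with those of Columbia-0 by the correlation rule (lowest values 0.02 and −0.05), although 11 of 12 libraries correlated best with their own number, a hint from the data and not the design. With the replicate block 7 members were called in nrpb2-3 against Columbia-0, BCAT4 added, 8 against the FACT mutants and 0 in the other comparisons. Over all genes the block moved the calls of ssrp1-2 against Columbia-0 from 114 to 192. Without both doubted libraries, 5 and 8 members were called in nrpb2-3. Other counts of all genes that moved by over 1.5 times were 11446 (nrpb2-3 against Columbia-0) and 11580 (against the FACT mutants) with library totals, against 6335 and 6268. For ssrp1-2, spt16-2 and spt16-2 against ssrp1-2 they were 289, 240 and 49 with DESeq2, 37, 42 and 22 with the compared groups alone and 37, 19 and 9 without both doubted libraries, and 56 for spt16-2 with limma, against 114, 86 and 14. With 1 library left out, they fell to as few as 42, 32 and 4, and the calls of nrpb2-3 against the FACT mutants fell to 3820 without nrpb2-3 replicate 3. With 3 libraries a group, a gene that was not called may still have changed. The intervals given show the range of changes that these libraries allow for a gene, and they are not limits of detection. They are not adjusted for the number of genes, so an interval can exclude 0 without a call, as for BCAT4 in nrpb2-3 and MAM3 in ssrp1-2.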

Other observations

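Of 9 tested genes of indolic glucosinolates, which are made from tryptophan by a parallel branch, 4 were called for the replicate number, against 6.63% of all tested genes, a look chosen after the values were seen. CYP79B2, CYP79B3, CYP83B1, SOT16 and IGMT2 were not called. CYP81F2, a P450 that modifies the indole ring, was at 52.2 CPM in replicate 2 of Columbia-0 and at 6.90 and 4.89 CPM in replicates 1 and 3. It was highest in replicate 2 in 4 of 4 genotypes, with a log2 difference between replicates 2 and 1 of 2.43 in the edgeR fit with the replicate block (adjusted p = 5.49e-05 for the number). MYB51, an indolic regulator, was likewise highest in replicate 2 in 4 of 4 genotypes (1.22, adjusted p = 0.00455), as was the methyltransferase gene IGMT1 (adjusted p = 0.000149). MYB34, another indolic regulator, was lowest there in 4 of 4 (−1.40, adjusted p = 0.000177), the direction seen for MYB28 and MYB29. Between nrpb2-3 and Columbia-0, CYP81F2 had a log2 fold change of −1.78 with an SE of 1.21 and was not called.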
